A study of Homo sapiens with 12 samples.

Results

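Glucose uptake, glycolysis, lactate handling and the response to low oxygen were followed through 40 listed genes in 12 RNA-seq libraries of breast and ovarian cancer cells. The genes were taken by name from the table of counts, which holds 57187 genes, of which 34909 had at least 1 count. All 40 were found, and all 40 were among the 17211 genes that passed the filter on low counts. The list was set by function: 2 glucose transporters, 15 glycolytic enzymes, 2 PFKFB regulators, 6 genes of lactate and pyruvate handling, 2 carbonic anhydrases, 5 secreted or matrix hypoxia genes, 5 intracellular hypoxia genes, the 2 HIF alpha subunits and the glucose-responsive inhibitor *TXNIP*.

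Glycolysis breaks glucose down to pyruvate in the cytosol, and many cancer cells turn most of that pyruvate into lactate even with oxygen present. When oxygen is low, prolyl hydroxylases stop marking the HIF alpha subunits for destruction, and the HIF alpha and beta subunits together bind DNA at a short core motif and raise glucose transporters, glycolytic enzymes, lactate export, acid handling and growth of vessels. HIF alpha is controlled mainly through its protein, so the RNA levels described here do not report HIF activity directly.

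SIVA is a pro-apoptotic protein, and D160N is a point mutation of it found in breast cancer. The cell lines were MDA-MB-231 (triple-negative breast cancer), HCC1954 (breast cancer with amplified *ERBB2*), OVCAR8 and SKOV3 (ovarian cancer, spelled OVAR-8 and SKOV-3 in the sample labels). Each line gave 3 libraries: a control, labelled parental with no treatment, cells transfected with SIVA-WT and cells transfected with SIVA-D160N. Transfectants were selected with hygromycin and kept as stable transfectants that carry SIVA under the CMV promoter. The study calls those of HCC1954, SKOV3 and OVCAR8 polyclonal and does not say this of MDA-MB-231. All cells were grown in the same serum-supplemented RPMI-1640 with no hypoxia step. The vector described in the methods carries a puromycin marker. The supplement calls the controls both parental and empty vector, so a difference between a transfectant and its control cannot be told apart from an effect of transfection and selection. With 1 library for each line and condition, a difference within a line had no replicate check, and the lines served as replicates of the conditions.

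Total counts ran from 35791455 to 45890398 per library, and mitochondrial genes took 3.61% to 5.77% of them. *SIVA1* was higher in both transfectants than in the control in all 4 lines, but the library labelled HCC1954 control had 0 *SIVA1* counts where the other 3 controls had 28.1 to 66.1 CPM (counts scaled to a library total of 1000000). Comparisons that use it were therefore also run without it. Line markers ran with the labels in part. *ERBB2* was at 5691 to 9127 CPM in HCC1954 and 5950 to 12130 CPM in SKOV3 against 32.0 to 77.8 CPM in the other lines. *CDH1* was above 1 CPM in HCC1954 alone, and *PAX8* was at 60.9 to 243 CPM in the ovarian lines. Against the labels, the ovarian marker *WT1* was at 5.49 to 7.98 CPM in HCC1954 and 0.396 to 1.11 CPM in SKOV3. The breast marker *GATA3* was at 42.3 to 49.2 CPM in HCC1954 but 1.79 to 2.85 CPM in MDA-MB-231, below OVCAR8 at 5.66 to 6.26 CPM. Of 9 markers of blood, vessel, connective tissue and liver, 3 passed the filter; *PTPRC*, *CD3E*, *CD68*, *ALB* and *HBB* stayed below 1 CPM in all 12 libraries, and *COL1A1* was at 3.38 to 502 CPM.

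The HIF core motif is written RCGTG, where R is A or G. The stretches below were chosen because they carry its ACGTG form next to an annotated start of genes whose levels the results turn on. They come from RefSeq on GRCh38.p14, read in the direction of the gene, from the 250 bases before an annotated start. Capitals mark a single match in each stretch, ACGTG, or CACGT where the motif lies on the other strand. Any further match is left in small letters.
*LDHA*, chr11:18394367-18394396: gactcccagcgcACGTGgagcagtctgccg
*LDHA*, chr11:18394465-18394494: agcccgactcacACGTGggttcccgcacgt
*PGK1*, chrX:78104034-78104063: gcggcgtgccggACGTGacaaacggaagcc
*ENO2*, chr12:6914450-6914479: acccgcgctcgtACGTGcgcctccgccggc
*ALDOC*, chr17:28576906-28576935: ccccggaggagtCACGTagctctgcgacat
*SLC16A3*, chr17:82228975-82229004: cgtgcgcgggggACGTGccgcgccagcgac
*CA9*, chr9:35673898-35673927: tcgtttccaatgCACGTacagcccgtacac
*BNIP3*, chr10:131982039-131982068: cgcacgcgccgcACGTGccacacgcacccc
*LOX*, chr5:122078340-122078369: tccaatcgcattACGTGaacaaatagctga
*TXNIP*, chr1:145995889-145995918: gtggtttgaattACGTGttgttgcttcctt
The *CA9* stretch ends at the base before the gene's start, with the motif at position -18, and the marked *LDHA* motifs are at -184 and -86. The second *LDHA* stretch also ends in an unmarked CACGT at -73, and the *LDHA* window holds 5 matches over both strands. The *TXNIP* and *LOX* motifs are at -162 and -98, all counted from the start used. A gene can have several annotated starts. The *TXNIP* and *SLC16A3* stretches lie inside those genes (chr1:145992435-145996579 and chr17:82217934-82240086), before an internal start.

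Windows were found for 35 of the 40 genes, 65 windows in all, and not for *VEGFA*, *NDRG1*, *SLC16A1*, *BNIP3L* and *SLC2A3*. ACGTG was present on either strand in 26 of the 65 windows (40%), against 22.0% of 15928 windows of tested genes and 18.5% of all 35116 windows. GCGTG was present in 23 of the 65 windows (35.4%), against 42.5% of the windows of tested genes and 32.2% of all windows. A CACGTG site holds ACGTG on both strands, and it also is the site of E-box factors. These matches describe letters in a window and say nothing about binding in these cells.

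*LDHB*, which encodes the lactate dehydrogenase subunit that favours lactate as substrate, had neither form of the motif in its window. The 250 bases before its start, chr12:21657843-21658092 on the minus strand, are given with each CG in capitals because the gene had almost no counts in HCC1954.
*LDHB*: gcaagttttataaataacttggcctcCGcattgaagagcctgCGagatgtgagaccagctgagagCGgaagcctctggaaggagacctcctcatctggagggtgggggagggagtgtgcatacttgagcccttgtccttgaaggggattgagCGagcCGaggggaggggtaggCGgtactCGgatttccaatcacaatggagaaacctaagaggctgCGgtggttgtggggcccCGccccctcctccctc
It holds 9 CG, and the median over all windows was 11.

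Levels of the 40 genes differed more between cell lines than between conditions. Every one of the 40 differed among the 4 lines at an edgeR false discovery rate (FDR) under 0.05, but so did 93.9% of all genes tested. Range of the 4 line means on the log2 CPM scale was widest for *LDHB* (13.83), *SLC2A3* (8.90), *CA9* (7.31), *EPAS1* (6.82), *CA12* (6.48), *ENO2* (5.92), *TXNIP* (5.70), *ALDOC* (4.97), *ADM* (4.47) and *SLC16A1* (4.01). The narrowest belonged to central enzymes, with 0.68 for *GAPDH*, 0.81 for *ENO1* and 0.82 for *TPI1*. The 3 libraries of a line are different transfections of that line, so these tests measure the line against the spread between them.

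**Figure D1:**
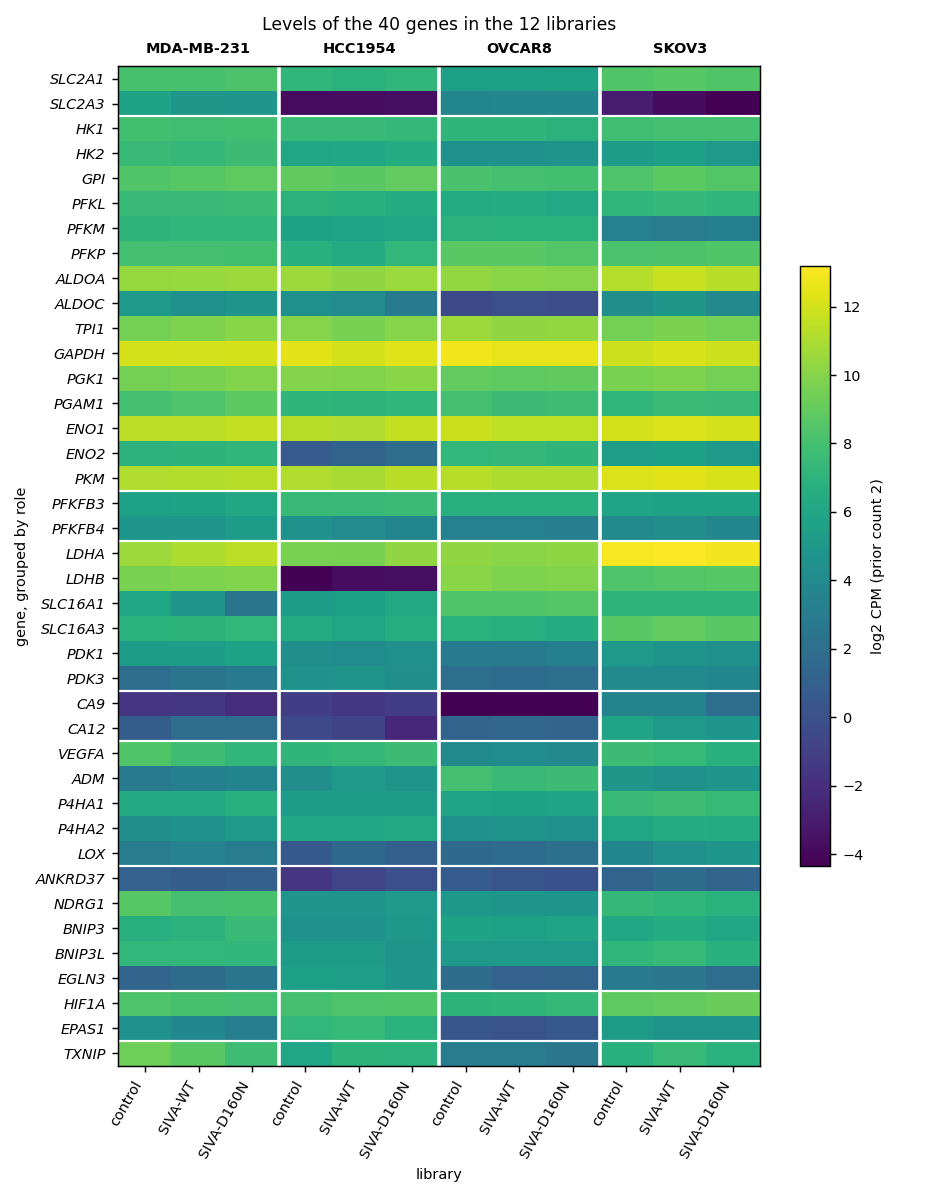
Heat map of log2 CPM (prior count 2) for the 40 genes, in rows grouped by role, and the 12 libraries, in columns grouped by line. *LDHB* in HCC1954, *SLC2A3* in HCC1954 and SKOV3 and *CA9* in OVCAR8 are the dark blocks, and the colours change more between lines than between the 3 conditions of a line.

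Counted against the mean of the other 3 lines, at an FDR under 0.05 and a fold change of 2 or more, SKOV3 was higher in 17 of the 40 genes (background 19.9% of genes tested) and lower in 2 (14.7%). OVCAR8 showed the opposite balance, higher in 6 (19.4%) and lower in 17 (14.9%). MDA-MB-231 was higher in 14 (16%) and lower in 5 (17.1%). HCC1954 was higher in 5 (20.8%) and lower in 13 (15.8%). A line that lacks a gene lifts every other line in this count, as *LDHB* did, so the genes were also set against each of the other 3 lines in turn, a rule chosen after the data were seen.

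Under the stricter rule SKOV3 was higher than each other line in 7 genes, *PKM*, *LDHA*, *SLC16A3*, *CA9*, *CA12*, *P4HA1* and *LOX* (17.5% of the 40, background 6.3%), and lower in *PFKM* (2.5%, background 5.68%). OVCAR8 was lower than each in 7 genes, *SLC2A1*, *ALDOC*, *PDK1*, *CA9*, *VEGFA*, *EPAS1* and *TXNIP* (17.5%, background 5.03%), and higher in *SLC16A1* and *ADM* (5.0%, background 5.61%). HCC1954 was lower in 6 genes, *PFKP*, *ENO2*, *LDHB*, *CA12*, *ANKRD37* and *BNIP3* (15.0%, background 7.21%), and higher in *EGLN3* and *EPAS1* (5.0%, background 8.44%). MDA-MB-231 was higher in *SLC2A3*, *HK2*, *NDRG1* and *TXNIP* (10.0%, background 4.43%) and lower in *ADM* (2.5%, background 6.57%).

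Glucose entry differed by transporter. *SLC2A1* (chr1:42925353-42958868, the widely expressed glucose transporter) was at 269, 272 and 319 CPM in the control, SIVA-WT and SIVA-D160N libraries of MDA-MB-231 and at 349, 397 and 347 CPM in SKOV3. HCC1954 had 147, 118 and 147 CPM, and OVCAR8 46.5, 47.6 and 48.5 CPM. The 4 lines did not overlap, and OVCAR8 was lower than the next line, HCC1954, by 1.54 ± 0.12 (log2 difference ± SE, FDR = 4.53e-07).

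*SLC2A3*, the high-affinity transporter known from neurons and leukocytes, split the lines into present and nearly absent. It was at 53.4, 30.7 and 27.7 CPM in MDA-MB-231 and at 12.9, 13.9 and 14.3 CPM in OVCAR8. HCC1954 had 3 counts over its 3 libraries and SKOV3 had 4, so that OVCAR8 was 553-fold higher than HCC1954 (95% counting interval 189 to 2680) and 422-fold higher than SKOV3 (165 to 1550). Its close copy *SLC2A14* had at most 39 counts in any library. Per kb of exon, with the exons of all annotated isoforms of a gene merged, *SLC2A3* made 7.34% to 15.3% of the transporter pair in MDA-MB-231. In OVCAR8 it made 20.2% to 21.2%.

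The 15 glycolytic enzymes together took 1.24% to 2.11% of all counts, and all 40 genes 1.47% to 3.37%, the highest in the SKOV3 SIVA-WT library. By median CPM per kb of exon, *GAPDH* led with 1823, followed by *ENO1* with 573, *ALDOA* with 379, *TPI1* with 354 and *PKM* with 282. At the other end stood *CA12* with 0.375 and *CA9* with 0.188. The lower glycolytic pathway, from aldolase to pyruvate kinase, thus held the most abundant RNAs, and the hexokinases, which trap glucose by phosphorylation, lay far lower, *HK1* at 29.6 and *HK2* at 9.50.

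*HK2*, the inducible hexokinase of many tumours, was at 183, 159 and 209 CPM in MDA-MB-231 and at 65.2, 73.3 and 89.6 CPM in HCC1954. The ovarian lines lay at 35.9 to 47.2 CPM in SKOV3 and 24.3 to 26.9 CPM in OVCAR8, and no 2 lines overlapped. MDA-MB-231 exceeded HCC1954 by 1.26 ± 0.14 on the log2 scale (FDR = 1.08e-05). Its share of the hexokinase pair per kb of exon was 45.4% to 50.4% in MDA-MB-231 and 14.7% to 17.8% in SKOV3, while *HK1* ranged over no more than 123 to 252 CPM in all 12 libraries.

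The RNA for phosphofructokinase, the committed step, was split differently among its isozymes by line. *PFKM*, the muscle isozyme, was at 9.96, 8.05 and 9.19 CPM in SKOV3, where it made 1.84% to 2.45% of the family per kb of exon. It was at 57.5 to 65.4 CPM in HCC1954, 115 to 120 CPM in OVCAR8 and 134 to 150 CPM in MDA-MB-231. SKOV3 lay below HCC1954 by 2.77 ± 0.11 on the log2 scale (FDR = 2.98e-09). *PFKP*, the platelet isozyme, took 66.2% to 72% of the family in both ovarian lines and 35.3% to 50.7% in both breast lines. *PFKL*, the liver isozyme, was lowest in OVCAR8 at 11.8% to 12.7%.

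The neural enolase *ENO2* was at 1.57, 2.41 and 3.74 CPM in HCC1954, against 123, 125 and 147 CPM in MDA-MB-231, 152, 160 and 137 CPM in OVCAR8 and 44.3, 49.5 and 33.8 CPM in SKOV3. The log2 difference HCC1954 minus SKOV3 was -4.07 ± 0.26 (FDR = 1.12e-07). The brain aldolase *ALDOC* was at 0.710, 0.916 and 0.808 CPM in OVCAR8 and at 7.22 to 33.0 CPM in the other 9 libraries. In every line the housekeeping forms dominated, with *ALDOA* at 96.5% or more of the aldolase pair and *ENO1* at 93.6% or more of the enolase pair.

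*PKM*, which makes pyruvate, was at 4855, 5390 and 4390 CPM in SKOV3 and at 1917 to 2674 CPM in the 9 other libraries, with no overlap. The log2 difference from SKOV3 was -1.06 ± 0.15 for MDA-MB-231, the nearest line (FDR = 6.10e-05). The table counts genes, so its splice forms could not be separated. *PFKFB3*, whose product makes an activator of phosphofructokinase, was highest in HCC1954 at 175 to 193 CPM. *PFKFB4* was highest in MDA-MB-231 at 27.9 to 40.4 CPM, and an HCC1954 library came near it at 24.6 CPM.

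Lactate dehydrogenase was where the lines parted most. *LDHA* (chr11:18394563-18408425), whose subunit favours turning pyruvate into lactate and whose start carries the motifs printed above, was at 8171, 9310 and 7506 CPM in SKOV3. It was at 1606, 2053 and 2751 CPM in MDA-MB-231, at 1257, 1097 and 1204 CPM in OVCAR8 and at 820, 789 and 1242 CPM in HCC1954. SKOV3 was above all other libraries, with a log2 difference MDA-MB-231 minus SKOV3 of -2.0 ± 0.19 (FDR = 3.58e-06), whereas HCC1954 and OVCAR8 overlapped (HCC1954 minus OVCAR8 -0.34 ± 0.18, FDR = 0.123).

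*LDHB* (chr12:21635342-21657842) was at 803, 894 and 935 CPM in MDA-MB-231, at 1070, 885 and 916 CPM in OVCAR8 and at 328, 357 and 388 CPM in SKOV3. In HCC1954 it had 0, 1 and 1 counts in the 3 libraries, 2 counts in 122311774. SKOV3, the next lowest line, was 21700-fold higher than HCC1954, with a 95% counting interval of 6000 to 179000. *LDHB* accordingly made up almost none of the pair in HCC1954, 40.7% to 50.2% in MDA-MB-231, 60.6% to 63.2% in OVCAR8 and 7.19% to 9.47% in SKOV3, per kb of exon. These shares depend on merged exon lengths of 6026 bases for *LDHA* and 2983 for *LDHB*. By CPM alone *LDHA* was above *LDHB* in each OVCAR8 library. Processed copies can take reads from these genes: the pseudogene row *LDHAP4* held 12 to 5441 counts, and the *LDHA* copies summed to 1.22% of *LDHA*.

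**Figure D2:**
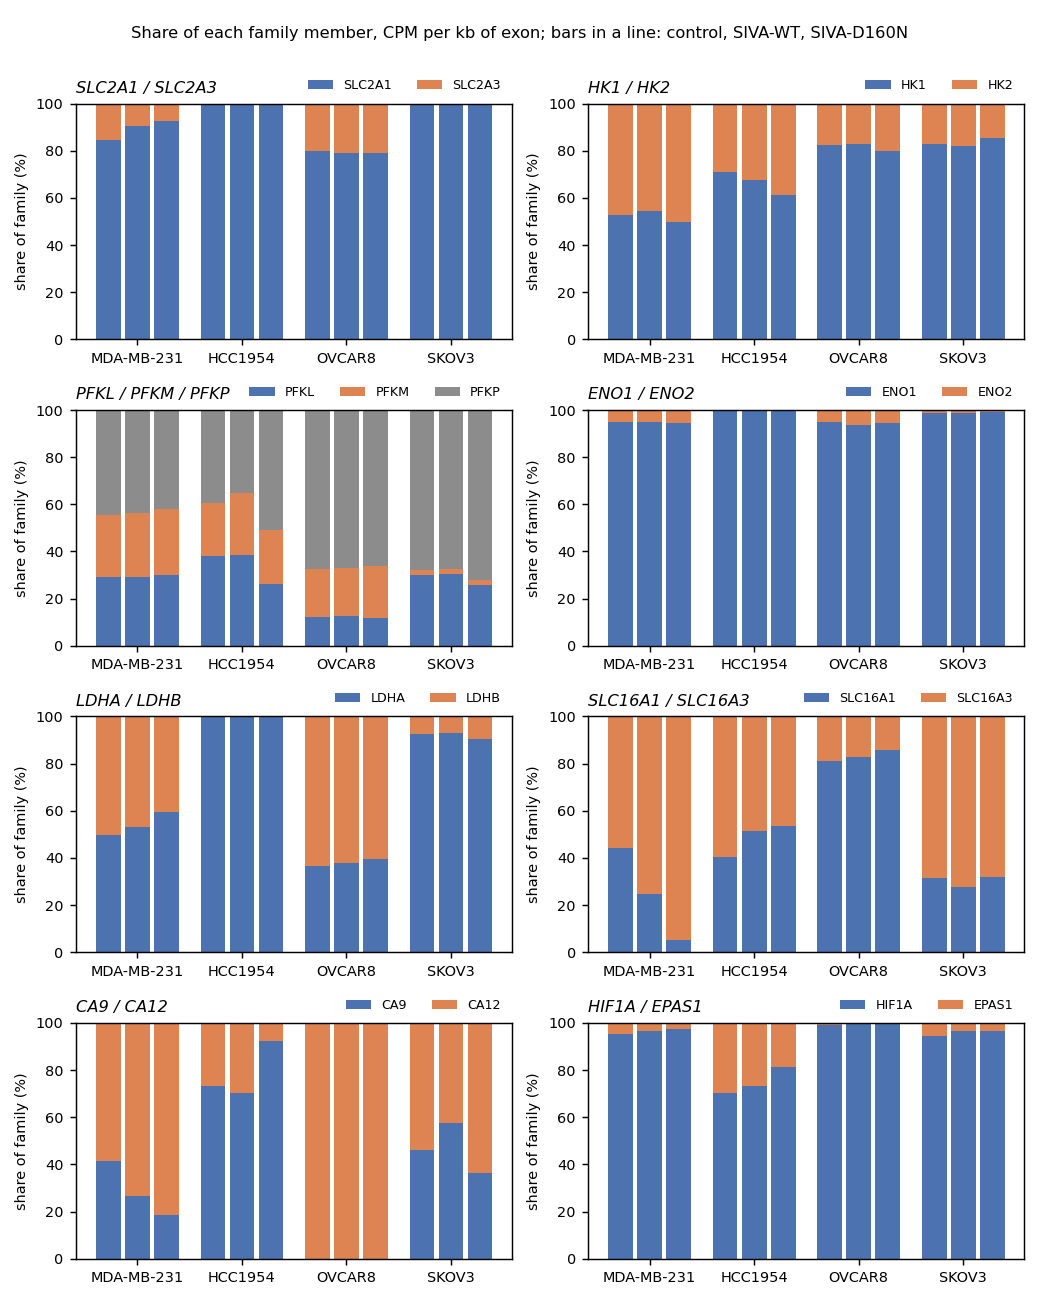
Stacked bars of the share of each family member, in percent of the family's CPM per kb of exon, for 8 families in the 12 libraries (in each line from left to right: control, SIVA-WT, SIVA-D160N). *LDHB* is missing in HCC1954 and above 60% in OVCAR8, *PFKM* nearly vanishes in SKOV3, and in the *SLC16A1* panel the MDA-MB-231 bars step from 44.4% down to 5.04% while the other lines move less.

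Lactate leaves or enters the cell through monocarboxylate transporters. *SLC16A3*, the high-capacity exporter, was at 417, 513 and 425 CPM in SKOV3 against 66.8 to 152 CPM elsewhere, and the log2 difference MDA-MB-231 minus SKOV3 was -1.78 ± 0.17 (FDR = 2.75e-06). *SLC16A1*, the transporter that carries lactate in both directions, was at 338, 342 and 377 CPM in OVCAR8 and at 131, 135 and 136 CPM in SKOV3. HCC1954 had 41.3, 48.4 and 77.1 CPM, and MDA-MB-231 64.3, 28.7 and 5.56 CPM, the widest spread within a line of the 40 genes. OVCAR8 exceeded SKOV3 by 1.40 ± 0.57 on the log2 scale (FDR = 0.0442). *SLC16A1* thus formed 81.1% to 85.7% of the pair in OVCAR8 and 27.6% to 31.8% in SKOV3.

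Pyruvate dehydrogenase kinases inhibit pyruvate dehydrogenase, the mitochondrial enzyme that uses pyruvate. *PDK1* was highest in MDA-MB-231 at 38.6 to 51.7 CPM and lowest in OVCAR8 at 7.59 to 9.28 CPM, and *PDK3* was highest in HCC1954 at 20.1 to 26.7 CPM. The kinases were near parity per kb of exon in HCC1954, with *PDK1* at 44.4% to 55.7%, and *PDK1* took 89.6% to 92.4% in MDA-MB-231.

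The carbonic anhydrases of the cell surface, which buffer exported acid, were SKOV3 genes in this panel. *CA9*, a classical HIF target, was at 11.5, 11.1 and 3.76 CPM in SKOV3, at 0.194 to 0.427 CPM in both breast lines and at 0 counts in all 3 OVCAR8 libraries. Taking 3 counts over the OVCAR8 libraries as the limit that a count of 0 allows, SKOV3 was at least 332-fold higher and MDA-MB-231 at least 9.88-fold higher. *CA12* was at 58.7, 35.7 and 28.6 CPM in SKOV3 and at most 3.69 CPM elsewhere, and the log2 difference MDA-MB-231 minus SKOV3 was -3.71 ± 0.39 (FDR = 7.98e-06).

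Of the secreted and matrix genes, *VEGFA*, the main growth signal for vessels, was at 15.6, 18.2 and 15.0 CPM in OVCAR8 and at 111 to 338 CPM in the other 9 libraries. The log2 difference OVCAR8 minus SKOV3 was -3.27 ± 0.29 (FDR = 1.70e-06), and the other lines overlapped. *ADM*, the vasodilator adrenomedullin, ran the other way: it was at 247, 178 and 202 CPM in OVCAR8 and at 7.42 to 34.0 CPM elsewhere. The collagen prolyl hydroxylase *P4HA1* and the collagen cross-linker *LOX* were highest in SKOV3, at 171 to 215 CPM and 13.1 to 28.7 CPM. Per kb of exon, *P4HA2* made 36% to 38.4% of its pair in HCC1954 and at most 13.7% in the other lines. Its merged exons span 10128 bases, against 3093 for *P4HA1*. By mean log2 CPM in HCC1954 *P4HA2* was the higher gene, at 6.18 against 5.23.

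Among intracellular hypoxia genes, *NDRG1*, a stress gene raised by low oxygen, was at 393, 265 and 270 CPM in MDA-MB-231 and at 27.3 to 32.9 CPM in HCC1954 and OVCAR8 alike (log2 difference HCC1954 minus OVCAR8 -0.01 ± 0.15, FDR = 0.974). *BNIP3*, which marks mitochondria for removal, was highest in MDA-MB-231 at 99.2, 122 and 174 CPM and lowest in HCC1954 at 24.3 to 32.2 CPM. *EGLN3*, a prolyl hydroxylase that acts on HIF alpha and is itself a HIF target, was at 45.9, 42.4 and 28.0 CPM in HCC1954 and at 2.23 to 7.82 CPM elsewhere. *ANKRD37* stayed at 0.285 to 3.55 CPM throughout.

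The HIF alpha subunits had different line patterns. *HIF1A* was at 462, 500 and 575 CPM in SKOV3, 261 to 345 CPM in HCC1954, 242 to 324 CPM in MDA-MB-231 and 125 to 158 CPM in OVCAR8. *EPAS1*, which encodes HIF-2 alpha, was at 155, 167 and 113 CPM in HCC1954, 37.5, 26.0 and 27.1 CPM in SKOV3, 23.1, 14.6 and 8.96 CPM in MDA-MB-231 and 1.26, 1.07 and 1.33 CPM in OVCAR8, with no overlap between lines. HCC1954 exceeded SKOV3 in *EPAS1* by 2.28 ± 0.21 on the log2 scale (FDR = 2.26e-06). *EPAS1* formed 18.8% to 29.6% of the pair per kb of exon in HCC1954 and 0.535% to 0.707% in OVCAR8. *TXNIP*, which restrains glucose uptake and is switched on by glucose, was at 652, 409 and 211 CPM in MDA-MB-231, 64.2 to 175 CPM in HCC1954 and SKOV3 and 5.89 to 8.22 CPM in OVCAR8.

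Across conditions, the study asked what SIVA-WT and SIVA-D160N change relative to control cells. For these genes no comparison passed the test. Of the 40, 0 were called in SIVA-D160N against control by edgeR at an FDR under 0.05 (background 0.00581%, 1 gene of 17211), 0 in SIVA-WT against control (background 0%) and 0 in SIVA-D160N against SIVA-WT (background 0%). DESeq2 and limma-voom also called 0 of the 40 in each comparison. At an unadjusted p under 0.05, 3 were higher in SIVA-D160N than in control (*LOX*, *P4HA2*, *BNIP3*; background 6.52%) and 3 lower (*CA9*, *EPAS1*, *ALDOC*; background 7.68%), which is 7.5% of the 40 each way. *LOX* alone was higher in SIVA-WT than in control at that limit (background 1.47%), and 0 were lower (background 1.07%). Against SIVA-WT, 0 were higher in SIVA-D160N (background 2.58%) and 3 lower, *BNIP3L*, *ALDOC* and *CA9* (background 4.3%). The 2 comparisons with control share the control libraries.

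The median log2 fold change of the 40 genes was 0.06 for SIVA-D160N against control, beside -0.01 for all genes tested. Of the 40, 24 were higher and 16 lower, and of all 17211 genes tested 8311 were higher and 8900 lower. For SIVA-WT against control both medians were -0.01. No gene of the 40 kept 1 sign in all 4 lines between SIVA-D160N and control, while 15.1% of all genes tested did.

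Of the 5 largest fitted increases, the collagen cross-linker *LOX* was at 8.31, 1.5, 3.17 and 13.1 CPM in the controls of MDA-MB-231, HCC1954, OVCAR8 and SKOV3, and at 8.06, 2.01, 4.33 and 28.7 CPM in SIVA-D160N. It was higher in 3 of 4 lines and within counting error of its control in MDA-MB-231, and the fitted log2 change was 0.51 ± 0.21 (SE, FDR = 0.314). In SIVA-WT its log2 change was 0.59 ± 0.21 (FDR = 1.0). *COL1A1*, the collagen gene among the markers of other cells, was at 23.8, 406 and 502 CPM in the control, SIVA-WT and SIVA-D160N libraries of SKOV3, and its part in the *LOX* values was not tested. *BNIP3* came next with 0.33 ± 0.14 (FDR = 0.325), where MDA-MB-231 went from 99.2 to 174 CPM and SKOV3 from 68.4 to 68.2 CPM. *P4HA2* had 0.31 ± 0.13 (FDR = 0.321), *LDHA* 0.31 ± 0.16 (FDR = 0.421) and *PGAM1* 0.22 ± 0.14 (FDR = 0.506). Without MDA-MB-231 the log2 changes in the edgeR fit were 0.16 for *BNIP3*, 0.17 for *P4HA2*, 0.15 for *LDHA* and 0.04 for *PGAM1*, with FDR values of 0.649 to 0.944. *LOX* was at 0.26 without SKOV3 (FDR = 0.652), *LDHA* at 0.20 without HCC1954 and *PGAM1* at 0.37 without OVCAR8.

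The largest fitted decrease was that of *CA9* (log2 change -1.0 ± 0.38, FDR = 0.300), and it rested on SKOV3, the 1 line with more than 1 CPM, where counts were 434 in control and 153 in SIVA-D160N. *EPAS1* followed, down in MDA-MB-231 from 23.1 to 8.96 CPM, in HCC1954 from 155 to 113 CPM and in SKOV3 from 37.5 to 27.1 CPM, with 1.26 and 1.33 CPM in OVCAR8. Its fitted log2 change was -0.64 ± 0.19 (FDR = 0.211), and it was -0.63 with an FDR of 0.013 when all genes were kept in the edgeR fit and -0.36 with an FDR of 0.469 without MDA-MB-231. The vessel markers *PECAM1* and *CDH5* were at 62.1, 59.5 and 32.3 CPM and at 25.1, 15.6 and 12.4 CPM in the control, SIVA-WT and SIVA-D160N libraries of HCC1954 and at most 1.81 CPM in the other lines, and their part in the *EPAS1* values was not tested. *EPAS1* is also on the study's printed list of changed genes, which was chosen on these libraries. *ALDOC* had -0.63 ± 0.27 (FDR = 0.332), *SLC2A3* -0.48 ± 0.26 (FDR = 0.440) and *VEGFA* -0.40 ± 0.23 (FDR = 0.460). Single lines moved these edgeR estimates: without MDA-MB-231, *SLC2A3* was at -0.03 (FDR = 0.991) and *VEGFA* at -0.12 (FDR = 0.892). *SLC2A3* was at -0.99 without OVCAR8, and *VEGFA* at -0.23 without SKOV3, -0.74 without HCC1954 and -0.63 without the HCC1954 control alone. *ALDOC* was at -0.27 without HCC1954 (FDR = 0.761) and at -0.40 without its control alone, and *CA9* at -0.30 without SKOV3 (FDR = 0.830).

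**Figure D3:**
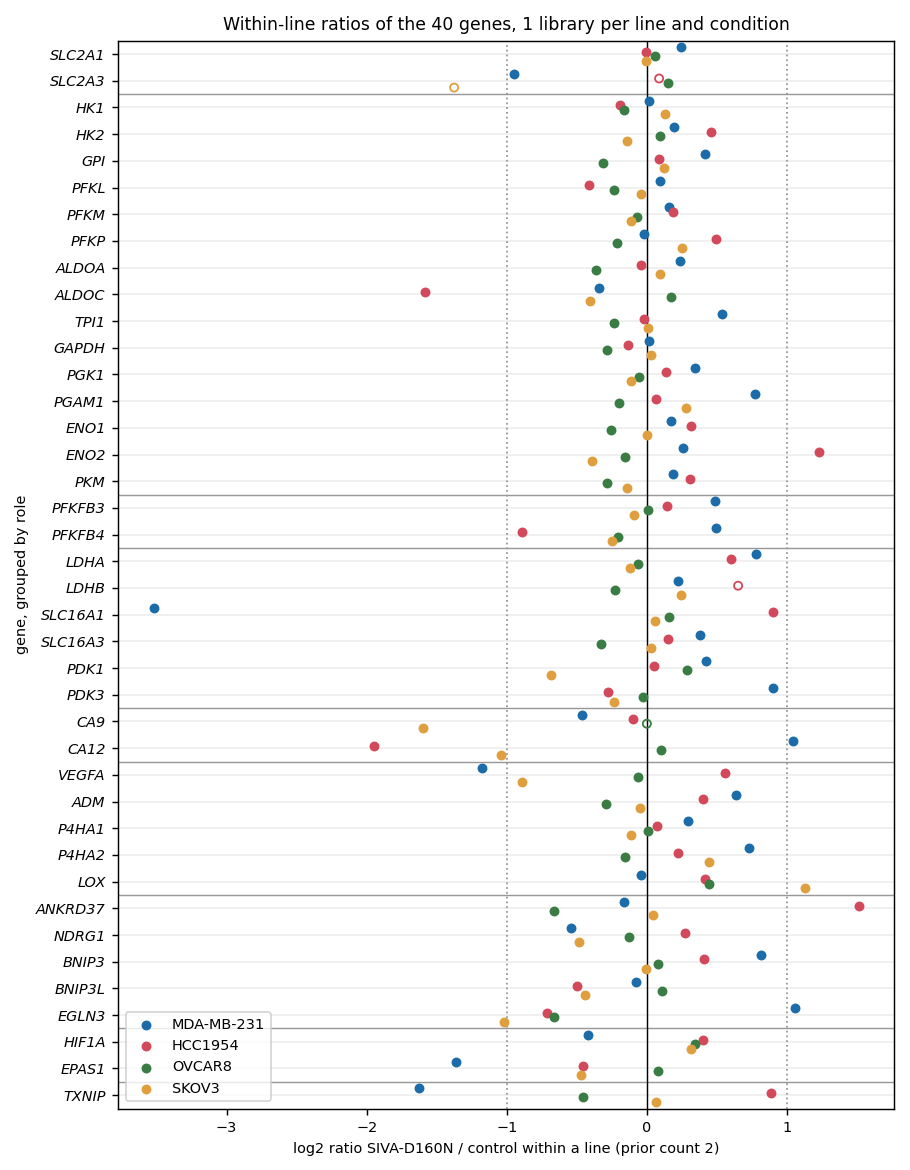
Log2 ratio of SIVA-D160N to control (x axis, prior count 2) for the 40 genes (y axis, grouped by role), with 1 point per line; dotted lines mark a fold change of 2 and open points have 3 counts or fewer in both libraries. *SLC16A1* in MDA-MB-231 lies farthest out at -3.52, and in no row do all 4 points fall on 1 side of 0.

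Within single lines, fold changes of 2 or more between SIVA-D160N and control were found for 6 of the 40 genes in MDA-MB-231 (15.0%, background 6.83%), 4 in HCC1954 (10%, background 10.2%), 0 in OVCAR8 (background 3.51%) and 5 in SKOV3 (12.5%, background 8.74%). For SIVA-WT the counts were 2 in MDA-MB-231 (background 4.57%), 1 in HCC1954 (background 4.49%), 0 in OVCAR8 (background 3.16%) and 0 in SKOV3 (background 5.79%). Intervals given with these ratios cover counting error alone.

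MDA-MB-231 held the widest of them. *SLC16A1* had 2912 counts in the control, 1135 with SIVA-WT and 229 with SIVA-D160N, a level 11.5-fold lower with SIVA-D160N (log2 ratio -3.52, 95% counting interval -3.73 to -3.34) and 2.24-fold lower with SIVA-WT. It was 1.87-fold higher with SIVA-D160N in HCC1954 and within 1.12-fold of control in OVCAR8 and SKOV3. The antisense row *SLC16A1-AS1* had 4, 6 and 9 counts in the 3 MDA-MB-231 libraries. Over the 4 lines the fitted log2 change of *SLC16A1* was -0.39 ± 0.52 (FDR = 0.779).

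*TXNIP* in MDA-MB-231 had 29485, 16187 and 8693 counts in the control, SIVA-WT and SIVA-D160N, and was 3.09-fold lower with SIVA-D160N. In HCC1954 it was 1.85-fold higher, with 2702 and 4192 counts. *VEGFA* was 2.26-fold lower in MDA-MB-231 (15296, 8424 and 6170 counts) and 1.85-fold lower in SKOV3, but 1.47-fold higher in HCC1954. *EPAS1* was 2.57-fold lower in MDA-MB-231 with SIVA-D160N (1046, 578 and 369 counts). In these 4 genes the SIVA-WT library of MDA-MB-231 lay between the control and the SIVA-D160N library.

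Against them, *LDHA* in MDA-MB-231 had 72692, 81288 and 113320 counts and was 1.71-fold higher with SIVA-D160N. *PGAM1*, the phosphoglycerate mutase, was also 1.71-fold higher, *BNIP3* 1.76-fold, *PDK3* 1.87-fold and *P4HA2* 1.66-fold. *CA12* and *EGLN3* were 2.06-fold and 2.08-fold higher from levels of 1.77 and 2.56 CPM. *HIF1A* was 1.34-fold lower in MDA-MB-231, where the other lines were 1.25-fold to 1.32-fold higher. SIVA-WT lay between control and SIVA-D160N for 29 of the 40 genes in MDA-MB-231 (72.5%, background 53.5%), for 19 in HCC1954 (47.5%, background 39.8%), for 16 in OVCAR8 (40%, background 44.6%) and for 13 in SKOV3 (32.5%, background 52.1%). The ratios to control share the control library of each line.

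**Figure D4:**
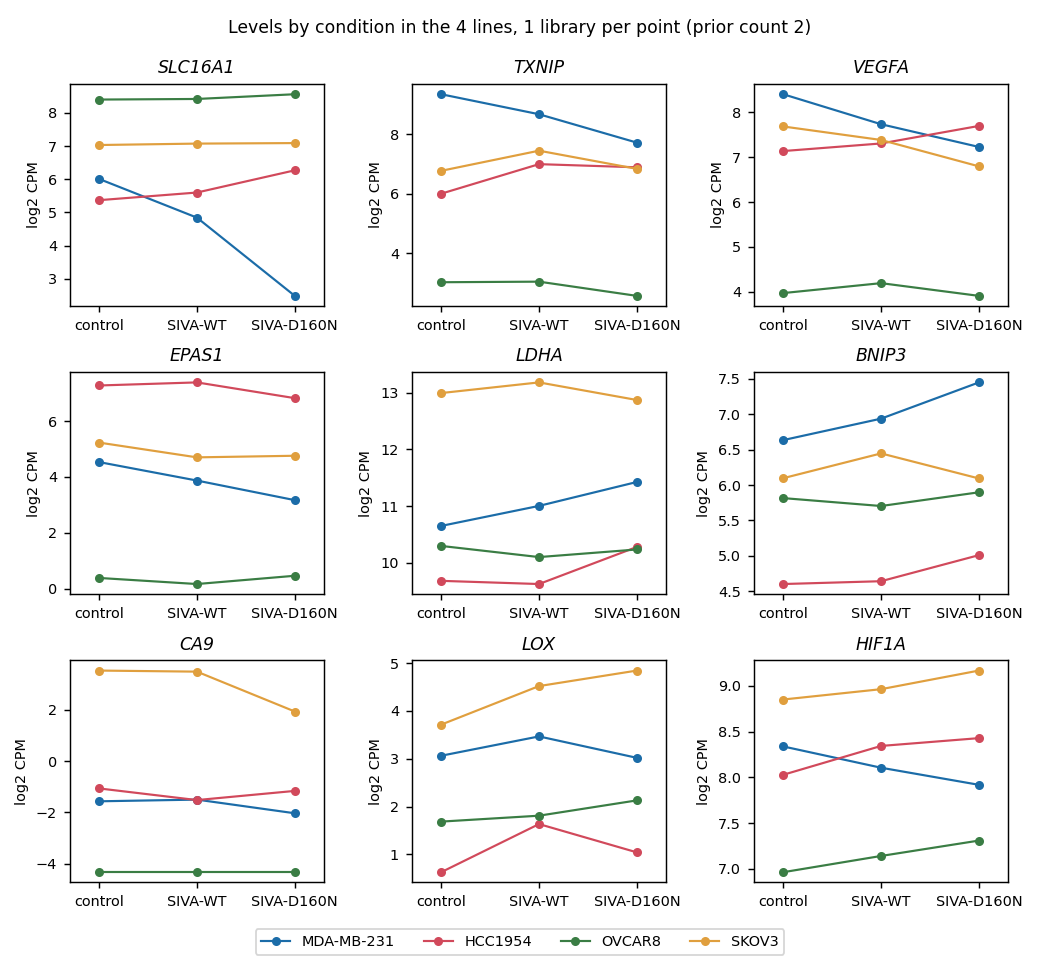
Log2 CPM (y axis, prior count 2; own scale in each panel) of 9 genes in control, SIVA-WT and SIVA-D160N (x axis), with 1 line per cell line and 1 library per point. *SLC16A1*, *TXNIP*, *VEGFA* and *EPAS1* step down in MDA-MB-231, *LDHA* and *BNIP3* step up there, and OVCAR8 stays nearly level.

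The other lines had their own sets. In HCC1954, *ALDOC* was 3.0-fold lower with SIVA-D160N (917 and 255 counts) and *CA12* 3.86-fold lower from 29 counts to 5. *ENO2* was 2.34-fold higher there (66 and 132 counts) and *ANKRD37* 2.86-fold higher from 12 counts to 32. These ratios rest on the control library that had no *SIVA1* counts. In SKOV3, *CA9* was 3.02-fold lower, *CA12* 2.05-fold lower and *EGLN3* 2.03-fold lower, while *LOX* was 2.19-fold higher (495 and 1167 counts) and already 1.75-fold higher with SIVA-WT. *SLC2A3*, the fifth SKOV3 gene in the count above, had 3 and 0 counts and is given no fold. The fitted log2 change of *CA9* in SIVA-D160N relative to SIVA-WT was -0.88 ± 0.38 on the log2 scale (FDR = 0.725).

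Glycolytic enzymes taken as a group moved little and not alike. With SIVA-D160N, 13 of the 15 were above control in MDA-MB-231 (median log2 ratio 0.19), 9 in HCC1954 (0.08) and 8 in SKOV3 (0.00), while 13 were below control in OVCAR8 (-0.21). Medians over all genes tested lay between -0.02 and 0. Of the 17211 genes tested, 8122 were above control in MDA-MB-231, 8337 in HCC1954 and 8413 in SKOV3, while 9002 were below control in OVCAR8. With SIVA-WT, 14 of the 15 were above control in SKOV3 (median 0.18), 11 in MDA-MB-231 (0.04), and 12 below it in HCC1954 (-0.17) and in OVCAR8 (-0.12). Of all genes tested, 8586 were above control in SKOV3 and 8047 in MDA-MB-231, and 8381 were below it in HCC1954 and 8406 in OVCAR8. The highest single enzyme ratio in MDA-MB-231 was that of *PGAM1*, from 252 to 431 CPM.

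An interaction term asked if the change from control to SIVA-D160N differed by tissue, with 2 lines of each. None of the 40 passed an FDR under 0.05 (background 0.00581%), and 4 had an unadjusted p under 0.05 (10.0%, background 5.06%). These were *LDHA* with a breast minus ovarian difference of 0.77 ± 0.24 on the log2 scale (FDR = 0.964), *ENO2* with 0.91 ± 0.29 (FDR = 0.964), *ADM* with 0.70 ± 0.24 (FDR = 0.964) and *BNIP3* with 0.57 ± 0.24 (FDR = 0.972). For *LDHA*, both breast lines were higher with SIVA-D160N, by 0.78 and 0.60, and both ovarian lines were at -0.06 and -0.12. All 4 estimates use the HCC1954 control library, which had 0 *SIVA1* counts, and the 0.60 is the HCC1954 ratio to it.

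Other genes of the pathways gave the same count of calls. Of 39 further glycolysis genes 29 were tested, and of these 0 passed the FDR in SIVA-D160N against control, with 3 higher and 1 lower at an unadjusted p under 0.05 (background 6.52% and 7.68%). The 3 were *DLAT*, a subunit of pyruvate dehydrogenase (0.20 ± 0.07, FDR = 0.262), *TIGAR*, a fructose bisphosphatase (0.34 ± 0.12, FDR = 0.266), and *PGAM5* (0.32 ± 0.13, FDR = 0.313). *PGAM5* is on that list, but its product is a mitochondrial protein phosphatase and not a glycolytic mutase. The lower gene was *SLC2A4*, the insulin-responsive glucose transporter (-0.98 ± 0.36, FDR = 0.271), at 0.0491 to 1.06 CPM in the 12 libraries. Of 26 further HIF targets, all tested, 0 passed the FDR, with 2 higher and 5 lower at that limit (against the same background), and their median was -0.05.

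The largest decreases among those HIF targets were in *DDIT4*, which restrains mTOR signalling, and *STC1*, a secreted glycoprotein. *DDIT4* was at 751, 156, 9.39 and 63.6 CPM in the controls of MDA-MB-231, HCC1954, OVCAR8 and SKOV3 and at 192, 26.6, 7.43 and 47.8 CPM with SIVA-D160N, lower in 4 of 4 lines with a fitted log2 change of -1.37 ± 0.33 (FDR = 0.154), and it too is on the study's list chosen on these libraries. *STC1* was lower in 3 of 4 lines (-1.09 ± 0.23, FDR = 0.136). Of 13 regulators of HIF, 12 were tested and 0 had an unadjusted p under 0.05.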

How the data were processed

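Counts per gene were deposited by the authors without normalization. Per the submitters' processing notes and the study's methods, stranded paired-end reads were checked with FastQC and aligned to GRCh38 with STAR 2.5.3a, and gene counts came from its output; the annotation release and the strand setting are not given in the sources used here. The deposited CPM table was not used. Every count column was matched to its sample by name (0 left over), and 66 pairs of libraries held 0 identical ones.

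The model used edgeR 4.0.16 under R 4.3.3 (quasi-likelihood, TMM, filterByExpr by condition, 17211 genes) with terms for line and condition over 12 libraries, and p-values were adjusted by Benjamini-Hochberg over all genes tested. The line was the replicate block: deviations from the condition means correlated at 0.929 to 0.968 within lines and -0.447 to -0.192 between lines. Standard errors are the log2 change over the square root of F. CPM uses TMM-scaled library sizes, and log2 CPM a prior count of 2. Exon lengths were those of the merged exons of all GENCODE transcripts of a gene. Values per kb of exon therefore depend on the annotated isoforms. Gene coordinates and promoter windows came from RefSeq (GRCh38.p14). The fit was tested on simulated counts. DESeq2 1.42.0, limma 3.58.1 (voom) and matplotlib 3.10.9 were also used.

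The members, gene lists and tests were chosen with earlier results of these data known. Named were the 5 largest fitted changes each way in SIVA-D160N against control, the 10 widest line ranges, the isozyme pairs, and up to 3 genes of each other list. Genes outside that rule, among them those with a fold change of 2 or more within a line, were chosen after their values were seen. Libraries of a condition are different lines and those of a line different transfections, so p-values measure the spread between these. Total counts limit a gene at 0 counts to the CPM of 3 counts, and intervals cover counting error alone.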

Additional observations from a re-analysis of the deposited data

Results flagged for a closer look

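In 200 sets of 4 lines (120 of levels, 80 of within-line ratios), 9 had 1 line far from the other 3 by Dixon's test, where about 10 would be flagged by chance at 1 in 20. The lines are not replicates of one another.

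The *LDHB* level in HCC1954 stood apart in every condition, at log2 CPM of -4.33 in control, -3.78 in SIVA-WT and -3.68 in SIVA-D160N, where the other lines were at 8.36 to 10.1 in control. The *ALDOC* level in OVCAR8 was -0.396 in control and -0.0499 in SIVA-WT, against at least 4.13 in the other lines. OVCAR8 also stood low in the SIVA-WT libraries for *VEGFA*, at 4.19 against 7.30 to 7.73, and for *GPI*, at 7.94 against 8.62 to 8.75.

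MDA-MB-231 stood apart in 2 ratios. The *SLC16A1* log2 ratio of SIVA-WT to control was -1.17 there and 0.0177 to 0.230 in the other lines. The *HIF1A* log2 ratio of SIVA-D160N to control was -0.42 there and 0.317 to 0.401 in the other lines.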

How the results depend on the processing

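The count of the 40 genes called in SIVA-D160N against control was 0 and became 1 (*EPAS1*) with no filter on low counts and 6 at an unadjusted p under 0.05. At that same limit it was 1 for SIVA-WT against control and 3 for SIVA-D160N against SIVA-WT, and it stayed 0 in all 3 comparisons under DESeq2's size factors, DESeq2, limma-voom, without the replicate block (the line), without the HCC1954 control and with any 1 line left out. Leaving out 1 line moved the median log2 change between -0.02 and 0.10 for SIVA-D160N and between -0.05 and 0.02 for SIVA-WT. Without 1 line, 35 to 40 genes differed among the lines. Against each other line instead of their mean, a setting chosen after the data were seen, the genes higher in MDA-MB-231, HCC1954, OVCAR8 and SKOV3 numbered 4, 2, 2 and 7 and those lower 1, 6, 7 and 1. With 1 line left out, the counts against the mean ran from 10 to 18, 4 to 8, 5 to 7 and 11 to 20 for higher and from 3 to 7, 11 to 16, 14 to 19 and 4 to 4 for lower. They were 3 lower in MDA-MB-231 without HCC1954 and 11 higher in SKOV3 without OVCAR8, while those higher in HCC1954 were 8 without MDA-MB-231 or SKOV3 and those lower in SKOV3 were 4 without any 1 of the others. The cause was not tested. A single library for each line and condition limits every within-line ratio.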
